A study of Homo sapiens with 3 samples.

Results

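CNTNAP2, CDH9 and COL23A1 are 3 genes for membrane proteins at the cell surface, and each held 1 of the sites that the authors listed as specific for DKK-1 chromatin immunoprecipitation (ChIP-seq) in DLD-1 cells. They were 3 of the 82 genes named in that list, which gave a gene for 83 of its 200 sites. Each gene was taken with its specific site and with every peak that overlapped its transcript extended by 100 kb on each side, which gave 19 of the 8723 distinct peaks of the experiment. The genes were picked from a list that was itself filtered on fold enrichment, so the enrichment of the 3 specific sites is given as a description. DLD-1 is a human colorectal adenocarcinoma line that, per the study, lacks endogenous DKK-1. The DLD-1/DKK-1 cells are labelled as transfected with DKK-1, a word that the study also uses. Its methods describe transduction with a lentivirus carrying human DKK-1 with a V5 tag, inducible by doxycyclin. The DLD-1/Mock cells are labelled as mock, which the study describes as infection with a lentivirus without an ectopic gene. Per the study, doxycyclin was given to transduced cells for DKK-1 expression, and its ChIP methods do not mention it. The control without antibody was a pool of input DNA from DLD-1 cells, whose composition is not given in the sources used here. The antibody was directed against DKK-1 per the methods and against V5 per the labels of both immunoprecipitates. Each condition had 1 library, so no difference was set against a spread between replicates and no test was made.

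CNTNAP2 codes for a neurexin-like transmembrane protein known for holding potassium channels in place along myelinated axons. CDH9 codes for a classical type II cadherin, one of the calcium-dependent proteins that join neighbouring cells. COL23A1 codes for a collagen that spans the plasma membrane, with a collagenous part outside the cell that can be shed. Cadherins and transmembrane collagens act at cell contacts and at the contact of cells with the matrix. A ChIP-seq peak is a stretch of the genome where more sequenced fragments (tags) were recovered than the control leads one to expect. A peak within an intron shows where tags accumulated and carries no measure of expression.

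MACS compared the 21312041 DLD-1/DKK-1 tags that it kept with 24151009 tags of DLD-1/Mock and, separately, with 27723787 tags of the input pool. The list against DLD-1/Mock held 6631 peaks and the list against input 5281, with 3189 peaks in both. The DLD-1/DKK-1 tags behind both lists are the same, and a peak found in both is not a second observation. The empirical FDR of MACS was at least 33.17% against DLD-1/Mock and at least 65.44% against input in the full lists. At the 3 loci it ranged from 37.77% to 54.14% against DLD-1/Mock and from 68.36% to 100% against input.

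The transcripts in the authors' list differ widely in size (hg18). CNTNAP2 (NM_014141) was placed on the plus strand at chr7:145444386-147749020, with 24 exons in 2305 kb, the longest transcript among the 82 genes. CDH9 (NM_016279) was placed on the minus strand at chr5:26916466-27074445, with 12 exons in 158 kb. COL23A1 (NM_173465) was placed on the minus strand at chr5:177597223-177950161, with 29 exons in 353 kb. Exons made up 0.428% of the CNTNAP2 transcript, 1.94% of the CDH9 transcript and 0.860% of the COL23A1 transcript, so nearly all of each locus is intron. The starts of these transcripts are the points from which all distances are counted. Because the CDH9 and COL23A1 sites lay within 5 kb of theirs, the 250 bases before a RefSeq start of each gene are printed here. They are from RefSeq on GRCh38.p14, on the strand of the gene, at chr7:146116551-146116800 for CNTNAP2, chr5:27038587-27038836 for CDH9 and chr5:178590394-178590643 for COL23A1. These RefSeq starts were matched by gene symbol and need not be the starts given in the authors' list. The printed bases may therefore lie partly or wholly within the listed transcript. Since the peaks are in hg18, peaks and sequences were not placed against each other. On both strands the TATA box TATAAA, the GC box GGGCGG and the box CCAAT were searched for, and their matches are marked by capitals.
CNTNAP2: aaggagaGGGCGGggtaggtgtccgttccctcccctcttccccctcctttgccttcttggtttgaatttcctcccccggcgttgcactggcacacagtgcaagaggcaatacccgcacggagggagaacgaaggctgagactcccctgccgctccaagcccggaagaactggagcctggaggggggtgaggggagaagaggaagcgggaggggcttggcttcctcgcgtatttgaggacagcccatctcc
CDH9: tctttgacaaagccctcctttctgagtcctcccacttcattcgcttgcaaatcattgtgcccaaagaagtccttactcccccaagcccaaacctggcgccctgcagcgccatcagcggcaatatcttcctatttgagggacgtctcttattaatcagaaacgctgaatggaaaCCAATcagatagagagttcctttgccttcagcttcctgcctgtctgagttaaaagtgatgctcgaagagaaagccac
COL23A1: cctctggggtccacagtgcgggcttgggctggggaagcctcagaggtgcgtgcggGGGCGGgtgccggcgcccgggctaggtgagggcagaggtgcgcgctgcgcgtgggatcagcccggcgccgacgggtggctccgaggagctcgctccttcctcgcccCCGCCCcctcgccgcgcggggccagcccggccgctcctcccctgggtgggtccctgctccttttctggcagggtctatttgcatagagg

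These 3 upstream sequences differ in base composition. G and C made up 74.4% of the COL23A1 sequence, with 25 CG dinucleotides and 2 GC boxes. They made up 62.4% of the CNTNAP2 sequence, with 12 CG dinucleotides and 1 GC box. The CDH9 sequence had 48.4% G and C, 7 CG dinucleotides, 1 CCAAT box and no GC box. The median of all 35116 RefSeq upstream sequences was 58.0% G and C. In those sequences the GC box occurred in 42.6%, CCAAT in 32% and TATAAA, which none of the 3 held, in 10.7%.

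CNTNAP2 carried 15 distinct peaks in its window of 2.50 Mb, CDH9 carried 2 in 0.358 Mb and COL23A1 carried 2 in 0.553 Mb. Against DLD-1/Mock there were 10 peaks at CNTNAP2, 2 at CDH9 and 2 at COL23A1. Against input there were 12, 2 and 1. Of these, 7 peaks at CNTNAP2, both peaks at CDH9 and 1 peak at COL23A1 were in both lists. Only CNTNAP2 had peaks in the added 100 kb, and both of them lay upstream of its start.

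**Figure D1:**
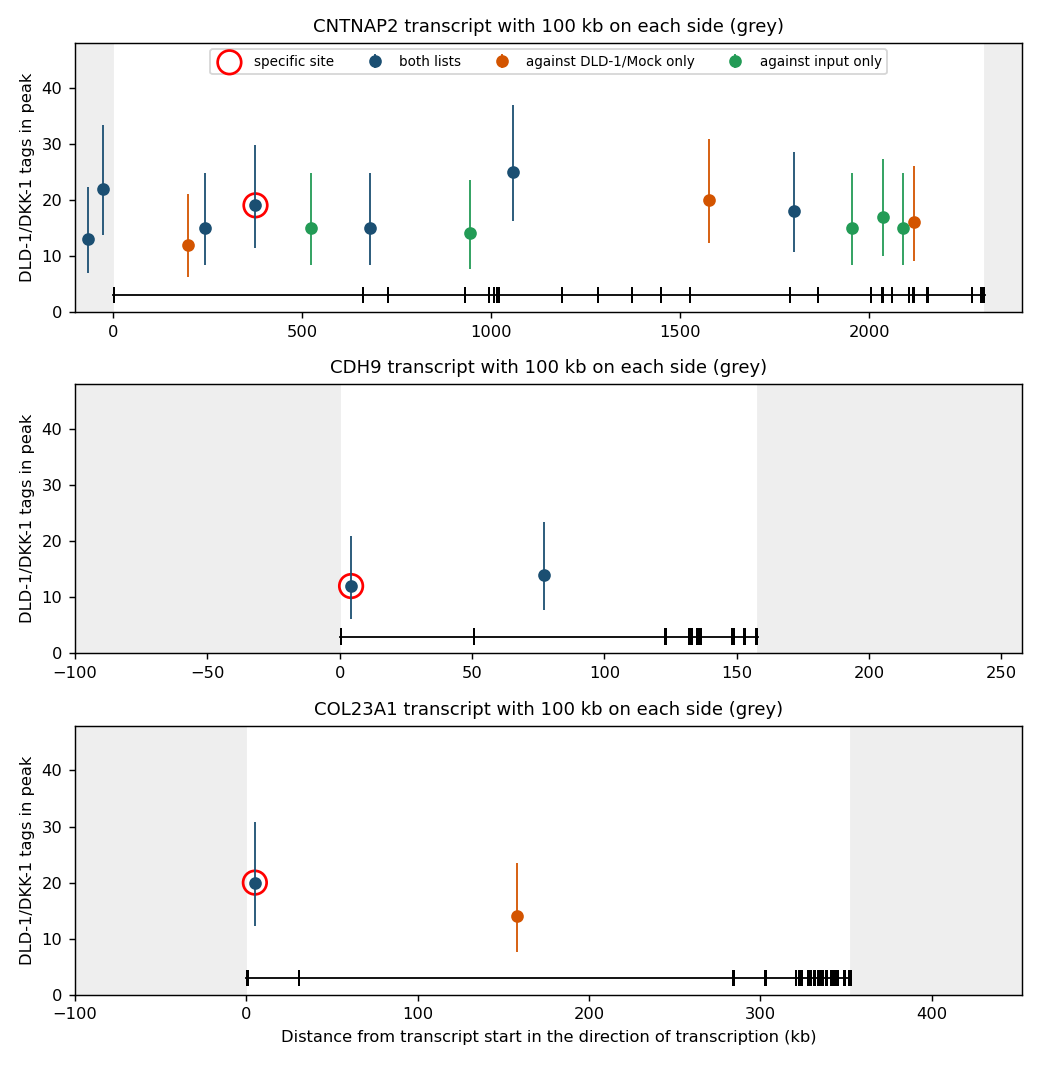
DLD-1/DKK-1 tags in each of the 19 peaks (points, with exact 95% Poisson intervals of the count) against the distance from the transcript start in kb, for CNTNAP2, CDH9 and COL23A1. Black bars are exons, grey the added 100 kb, colours the list or lists that hold the peak and red rings the specific sites, which lie at 377 kb in CNTNAP2 and at 4.28 and 4.92 kb in CDH9 and COL23A1.

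The 3 specific sites all had their centre in the first intron. This was so for 21 of the 83 sites with a gene (25.3%), and with 3 genes chosen by name the difference was not tested. The first intron made up 28.5% of the CNTNAP2 transcript, 31.7% of CDH9 and 8.26% of COL23A1. In CDH9 the coding sequence begins in exon 2, so the site lay upstream of it, whereas in CNTNAP2 and COL23A1 coding begins in exon 1.

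The COL23A1 site, chr5:177945035-177945456, was 422 bp wide and held 20 tags (exact 95% Poisson interval 12.22 to 30.89). Its centre lay 4916 bp into the transcript and 4266 bp from the nearest exon. Fold enrichment was 13.51 with DLD-1/Mock as control and 11.56 with input. The former was the highest of the 83 sites with a gene, and 1 of the 200 sites and 5 of the 6631 peaks of the list exceeded it. Against input, 41 of the 200 sites had a higher value. Its score (−log10 of the P value, times 10) was 101.1 with DLD-1/Mock as control and 89.2 with input.

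The CDH9 site, chr5:27070013-27070310, was narrower, at 298 bp, and held 12 tags (6.2 to 20.96), the lowest number of any peak in either list. Its centre was 4284 bp downstream of the start and 4166 bp from the nearest exon. Fold enrichment was 10.07 with DLD-1/Mock as control and 10.14 with input, where the latter is what 12 tags give over the 1.18 tags per fragment that an even spread over the genome leads to. Of the 200 specific sites, 184 had a higher fold enrichment against DLD-1/Mock and 183 held more tags. Against input, 109 of the 200 sites had a higher fold enrichment, so by that control the site was near the middle. The limit of the authors' list fell at a fold enrichment of 10 against both controls. The nearest peak outside it had a lower value of 9.98 and the nearest inside 10.01, so CDH9 was close to the limit and COL23A1 was not. Closeness to the limit was common against input, where the median of the 200 sites was 10.28, beside 10.91 against DLD-1/Mock. The intervals of 12 and 20 tags overlap, and the counts do not rank the CDH9 and COL23A1 sites beyond counting error.

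The CNTNAP2 site, chr7:145820965-145821631, was the widest of the 3 at 667 bp and held 19 tags (11.44 to 29.67). Fold enrichment was 11.82 against both controls, which is what 14 tags give over that even spread, with a score of 61.22 against both. Its centre was 376912 bp downstream of the transcript start, deep in a first intron of 657 kb, and 280998 bp from the nearest exon. Only 1 of the 83 sites with a gene was farther from an exon of its transcript, where the median was 2526 bp. The CDH9 and COL23A1 sites lay nearer their transcript start, and 7 and 8 of the 82 genes had a site at a shorter distance downstream of the start.

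**Figure D2:**
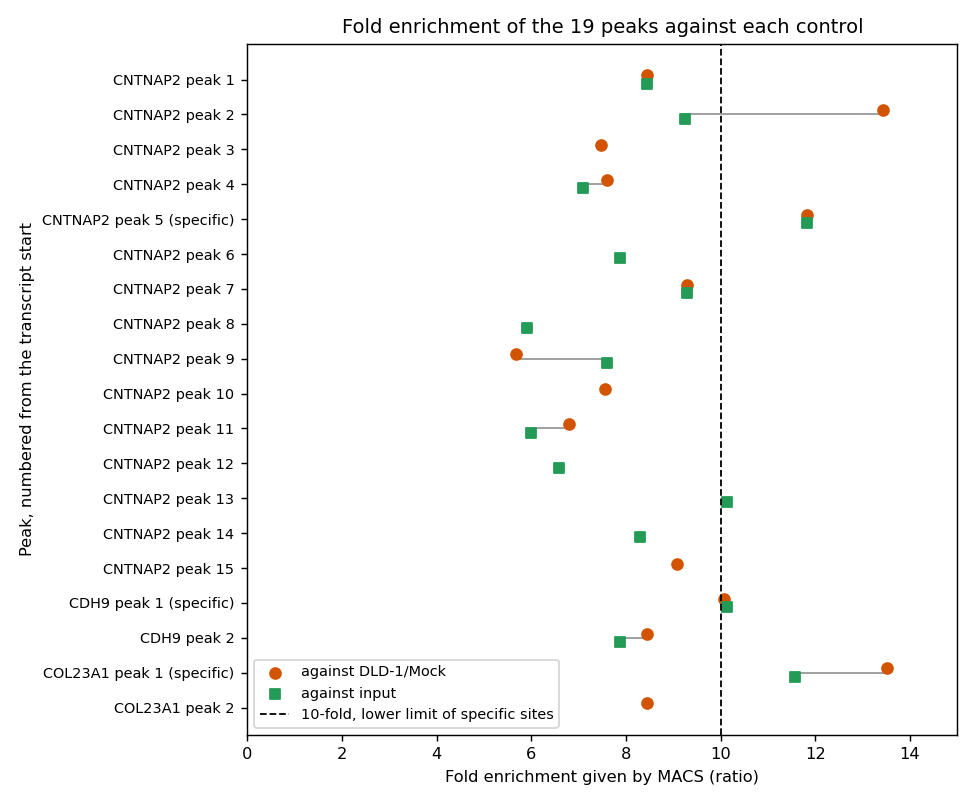
Fold enrichment given by MACS (ratio, horizontal axis) for the 19 peaks, numbered from the transcript start, against DLD-1/Mock (circles) and against input (squares), with a grey line between the values of 1 peak and a dashed line at 10. A peak with 1 symbol was in 1 list only, and CNTNAP2 peak 2 has the widest gap, from 13.43 with DLD-1/Mock as control to 9.25 with input.

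The CNTNAP2 locus gives most of the other peaks. Upstream of the start, the peak at chr7:145417843-145418511 was centred at -26209 bp from it, held 22 tags and had a fold enrichment of 13.43 against DLD-1/Mock, higher than the specific site. Against input its value was 9.25, below the limit of 10, and the ratio of these values, 1.45, was the largest of any peak here. Since the DLD-1/DKK-1 tags are the same in both comparisons, a ratio above 1 means that the background that MACS expected at that place was higher from input than from DLD-1/Mock. The other upstream peak, chr7:145379509-145379899, held 13 tags and had 8.45 against both controls.

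The first intron of CNTNAP2 held 4 peaks in all. Beside the specific site these were chr7:145642380-145642732 with 12 tags, against DLD-1/Mock only, chr7:145687923-145688331 with 15 tags, in both lists, and chr7:145968222-145968635 with 15 tags, against input only. The 12 tags are the lowest number in either list, and the score of 50.46 was close to the lowest that MACS reported, 50.01. Within the first intron, therefore, 2 of 4 peaks depended on which control was used. This was common, since only 3189 of the 8723 distinct peaks of the experiment were in both lists.

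Further along the transcript, chr7:146124406-146124810 in intron 2 (15 tags, fold enrichment 9.29 against both) was in both lists, and chr7:146389439-146389894 in intron 4 (14 tags, 5.91) was found against input only. The peak with the most tags of the 19 was chr7:146501461-146502204 in intron 8, 1057446 bp from the start, with 25 tags (16.18 to 36.90) over 744 bp. It was also the widest. With DLD-1/Mock as control its fold enrichment, 5.67, was below that of the 13 other peaks of the 3 loci in that list, while against input it was 7.60, the median of the whole list, with a score of 84.1. With a ratio of 0.75, it went furthest in the direction opposite to the upstream peak.

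No peak was called over the next 519 kb, the longest gap in the locus. It ended at chr7:147020132-147020739 in intron 13, with 20 tags and a fold enrichment of 7.55, against DLD-1/Mock only. The peak at chr7:147244847-147245386 in intron 14 held 18 tags and was the only one of the 6 peaks in the second part of the transcript, cut at its midpoint, to be in both lists. In the first part, 4 of 7 peaks were in both, among them the specific site, which was in both by selection. Over the whole experiment 3189 of 8723 distinct peaks were in both, and the difference between the parts was not tested. The 4 peaks nearest the 3′ end lay between 1952850 and 2116942 bp from the start, in introns 15, 17, 18 and 20, with 15 to 17 tags each. The first 3 of them were found against input only and the last, chr7:147561100-147561556, against DLD-1/Mock only. This last one was the nearest of all 13 peaks within CNTNAP2 to an exon, at 3525 bp. The peak in intron 17, chr7:147479699-147480196, had a fold enrichment of 10.14 against input and was not listed against DLD-1/Mock.

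Peaks of CNTNAP2 in both lists had a median of 18 tags (13 to 25), those against DLD-1/Mock only a median of 16 (12 to 20) and those against input only a median of 15.0 (14 to 17). The ranges overlap, and none of these peaks can be ranked by its tags beyond counting error. A peak missing from a list was not called at the P value of 1e-05 against that control, and its value there is not known. The peaks in 1 list only had scores from 50.46 to 67.13 in that list, and the peaks in both had scores from 53.3 to 79.29 with DLD-1/Mock as control and from 51.9 to 84.1 with input.

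CDH9 and COL23A1 had 1 further peak each, and both lay in intron 2, the largest intron of either transcript (45.7% of CDH9 and 71.9% of COL23A1). The CDH9 peak, chr5:26997031-26997372, held 14 tags and was in both lists, with a fold enrichment of 8.45 against DLD-1/Mock and 7.88 against input. It held 2 tags more than the specific site in the same gene and had a higher score (67.4 against 58.47 in the list against DLD-1/Mock), but a lower fold enrichment. The COL23A1 peak, chr5:177791764-177792171, held 14 tags, had a fold enrichment of 8.45 and was found against DLD-1/Mock only.

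Of the 14 peaks against DLD-1/Mock at the 3 loci, 10 were also in the list against input, or 71.4% (exact Clopper-Pearson 95% interval 41.9% to 91.6%), where 48.1% of the whole list were. Of the 15 peaks against input, the same 10 were 66.7% (38.4% to 88.2%), where 60.4% of that list were. Both list-wide shares are inside these intervals, which cover counting error only, and the 3 specific sites were in both lists by selection. Among all peaks in both lists, 6.27% were specific sites. A fold enrichment of at least 10 was reached by 4 of 14 peaks in the list against DLD-1/Mock and 4 of 15 in the other, and by 9.12% and 9.60% of the whole lists. In each list 3 of these 4 were the specific sites, which the authors' limit had fixed. A P value of 1e-10 or less was reached against DLD-1/Mock by the COL23A1 site alone, 1 of 14, where 3.48% of the list reached it, and against input by 0 of 15, where 2.94% did.

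The peaks of the 3 loci were of ordinary size for these lists. Their median was 15.0 tags (12 to 25) and 435 bp (298 to 744), beside 16 tags and 477 bp in the list against DLD-1/Mock and 16 tags and 473 bp in the list against input. Both CDH9 peaks, 298 and 342 bp wide, were narrower than the lower quartile of either list (415 bp against DLD-1/Mock, 409 bp against input). Their 12 and 14 tags were at or below the lower quartile of 14 tags in each list. The largest peaks of the full lists, with 1081 and 1859 tags, were far beyond any peak here. Of the 10 peaks in both lists, 3 had the same fold enrichment against both controls, 5 a higher one against DLD-1/Mock and 2 a higher one against input. Over all peaks in both lists these shares were 23.3%, 44.3% and 32.4%. Fold enrichment was, to within its rounding of 0.005, what a whole number of tags gives over the even spread for 7 of 14 peaks with DLD-1/Mock as control and 7 of 15 with input, beside 37.0% and 39.0% of the lists.

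All 17 peaks inside the transcripts had their centre in an intron. The median distance to the nearest exon was 26768 bp, from 3525 to 280998 bp. Within CNTNAP2 the median was 41300 bp, beside 36823 bp for any base of the transcript. CDH9 had distances of 4166 and 26768 bp where any base had a median of 10818 bp, and COL23A1 had 4266 and 125442 bp where it was 38647 bp. In both genes 1 peak was nearer an exon than that and 1 farther.

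Per Mb of transcript, CNTNAP2 had 3.47 peaks against DLD-1/Mock (exact 95% Poisson interval 1.5 to 6.84) and 4.34 against input (2.08 to 7.98). CDH9 had 12.7 in both lists (1.53 to 45.7). COL23A1 had 5.67 against DLD-1/Mock (0.686 to 20.5) and 2.83 against input (0.0717 to 15.8). The intervals of the 3 genes overlap in each list. Since every gene was chosen for holding at least 1 peak, short transcripts have a high value by construction, and the order of the 3 genes is not read further.

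The surroundings of the loci differed. In the 5 Mb beyond the CNTNAP2 window on each side there were 83 peaks against DLD-1/Mock, or 8.30 per Mb (6.61 to 10.3), more than in the window, 3.99 per Mb (1.91 to 7.34), and more than on chromosome 7 as a whole, 4.53 per Mb. The intervals of the window and its surroundings overlap, but each value lies outside the interval of the other. Against input the window had 4.79 per Mb (2.48 to 8.37) and the surroundings 4.30 (3.11 to 5.79), both above the 2.11 per Mb of chromosome 7. Against DLD-1/Mock, 32.1% of the peaks of chromosome 7 and 31.3% of those in the surroundings (26 of 83) were also in the list against input. In the CNTNAP2 window the share was 70.0% (7 of 10, Clopper-Pearson 34.8% to 93.3%). The 7 include the specific site, which was in both lists by selection. This interval therefore cannot be set against the shares of the chromosome and the surroundings, and nothing is concluded from it. Seen from the list against input, the order was the other way, with 58.3% in the window (7 of 12, 27.7% to 84.8%), 60.5% in the surroundings (26 of 43) and 70.6% on chromosome 7. With 10 and 12 peaks in the window, none of these differences was tested.

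Around CDH9 there were 1.90 peaks per Mb against DLD-1/Mock and 2.30 against input, and around COL23A1, where the chromosome ends within the span, 0.922 in each list. Chromosome 5 had 1.30 and 1.08 per Mb. The windows had more, with 5.59 per Mb in both lists for CDH9 and 3.62 and 1.81 for COL23A1, of which 1 peak each was the site that the genes were chosen for. Their intervals, 0.677 to 20.2 for CDH9, 0.438 to 13.1 for COL23A1 with DLD-1/Mock as control and 0.0458 to 10.1 with input, include the values around them.

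**Figure D3:**
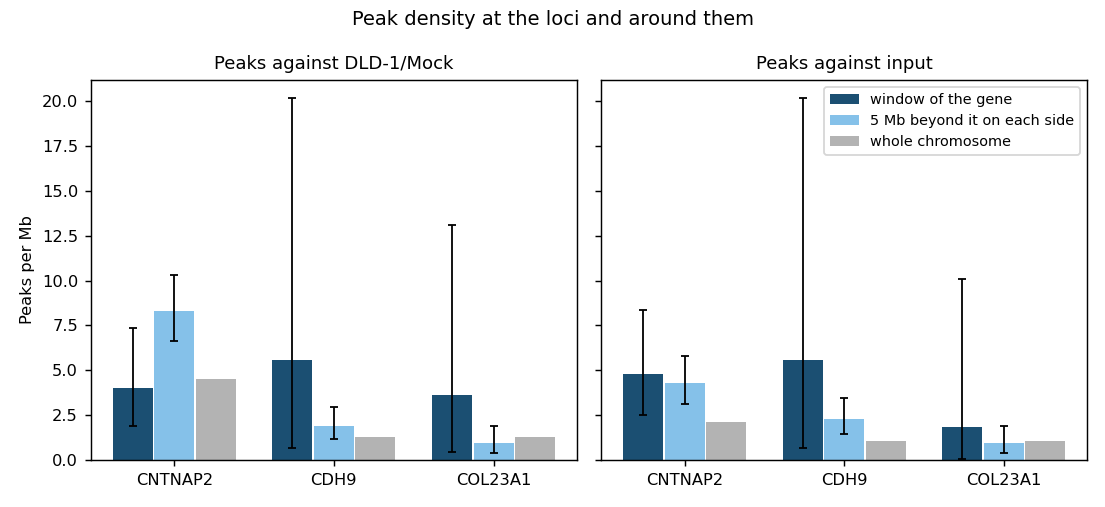
Peaks per Mb against DLD-1/Mock (left) and against input (right) in the window of each gene, in the 5 Mb beyond it on each side and on its whole chromosome (bars), with exact 95% Poisson intervals for the window and its surroundings (lines). Against DLD-1/Mock the CNTNAP2 window (3.99) is below its surroundings (8.30), and against input the values are 4.79 and 4.30.

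By the same rule the 82 genes had a median of 2.00 peaks per window in each list and of 4.76 peaks per Mb of window against DLD-1/Mock and 4.54 against input. CNTNAP2 had more peaks than most, with 8 windows above it against DLD-1/Mock and 3 against input, but its window is also the longest, and 48 and 38 windows had more peaks per Mb. CDH9 was near the middle, with 37 and 35 windows above it per Mb. COL23A1 was lower, with 56 windows above it against DLD-1/Mock and 79 against input. Many of the windows with the most peaks were on chromosome 8, which had 14.4 peaks per Mb with DLD-1/Mock as control and 10.3 with input. Among the 70 genes on other chromosomes, 2 windows had more peaks than CNTNAP2 with DLD-1/Mock as control and 1 with input. The number of peaks was only weakly related to the length of the window across genes (Spearman's rho 0.14 against DLD-1/Mock and 0.18 against input, n = 82, all from the same library).

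**Figure D4:**
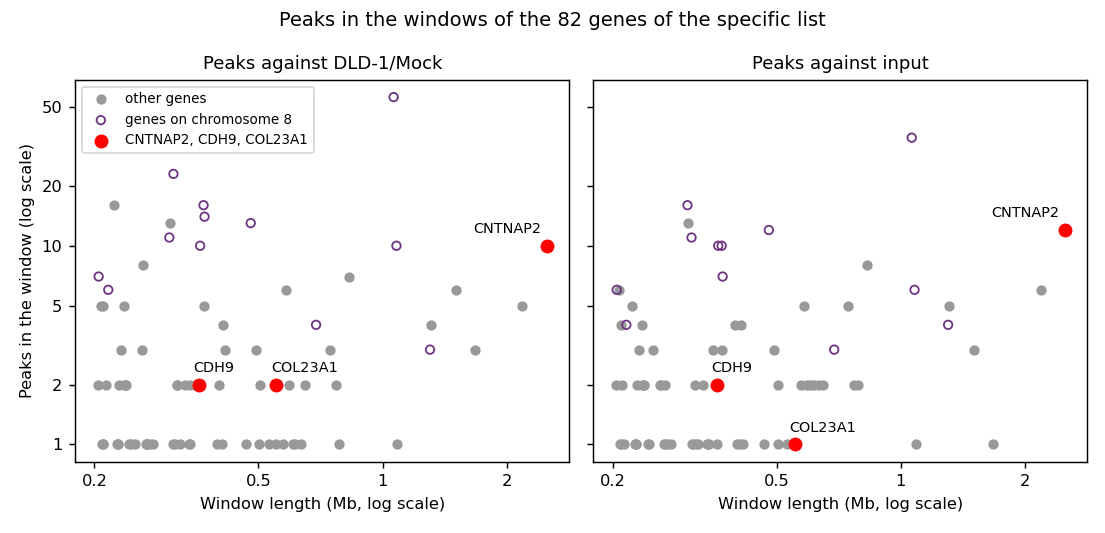
Number of peaks in the window (log scale) against window length in Mb (log scale) for the 82 genes of the specific list, against DLD-1/Mock (left) and input (right). CNTNAP2, with 10 and 12 peaks in the longest window, CDH9 with 2 and 2 and COL23A1 with 2 and 1 are in red, and genes on chromosome 8 are open circles.

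The genes with the most similar peaks per Mb of window to each of the 3 were found over both lists, among genes with a window at most 2 times longer or shorter (distance on the log2(peaks per Mb + 1) scale). For CNTNAP2 they were NRG3 (4 and 5 peaks against DLD-1/Mock and input, distance 0.40) and NRG1 (3 and 4 peaks, 0.78), which code for ligands of ERBB receptors, out of 5 genes of such length. For CDH9 they were MON2 (2 and 2 peaks, 0.14) and EPHA3 (3 and 3 peaks, 0.15), an ephrin receptor, out of 67. For COL23A1 they were IQGAP2 (2 and 1 peaks, 0.13), a scaffold protein of the actin cytoskeleton, and ARHGAP44 (2 and 1 peaks, 0.49), out of 46. With so few peaks per window, such a likeness is a match of small counts.

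Other genes for adhesion molecules, collagens and matrix proteins were looked for in the list of specific sites. A search by symbol for cadherins, protocadherins, contactins, neurexins, integrins, catenins and further adhesion families found 3 of the 82 genes, CNTNAP2, CDH9 and ITGB1BP2. The last codes for melusin, a protein that binds the tail of an integrin and is not itself an adhesion molecule. Its window held 2 peaks, both in both lists, and the centre of its site was at -51 bp from the transcript start. The search for collagens, laminins and other matrix proteins found COL23A1 alone. KIRREL3 and MATN2, noticed after the values were seen and not covered by the search, also belong to these kinds of protein. KIRREL3, an adhesion molecule of the immunoglobulin superfamily, held 2 peaks, in both lists, and had its specific site in the first intron, 180664 bp from the start. MATN2, a matrix protein of the matrilin family on chromosome 8, had 16 peaks in its window with DLD-1/Mock as control and 10 with input.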

How the data were processed

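ChIP-seq libraries of DLD-1/DKK-1, DLD-1/Mock and pooled input were grouped by their labels, with 1 library each. Per the methods and the file headers, the authors aligned 40 bp reads to hg18 with ELANDv2 in CASAVA 1.7, kept unique alignments and called peaks with MACS 1.4.0beta (P value 1e-05, fragment size and band width 150 bp, at most 2 tags per position) on single libraries. The deposited values were the tag count per peak, without normalization, a score of 10 times −log10 P, fold enrichment as a ratio of tags to expected background, and FDR as a percent. Tags of the controls in each peak were not used here. Values of the authors' peak caller served only to describe peaks.

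Peaks were intersected in Python 3.11.15 (pandas 2.3.3, numpy 2.4.6, scipy 1.17.1, matplotlib 3.10.9), with 1 bp in common counted as overlap and positions counted from 1. The functions for overlap were tested on simulated data (3000 peaks). Exon positions came from the transcript columns of the deposited list of specific sites. Chromosome densities were taken between the first and last peak, and upstream sequences and motifs from RefSeq (all 3 genes matched by symbol). Motifs were chosen after the sequences were seen. The 3 genes, the windows and the gene lists were chosen with earlier results of these data known. Named were each specific site, the peaks extreme in tags, fold enrichment and position (all 19 are described), the genes found by symbol in lists of adhesion and matrix families, and the 2 genes with peak densities most like each member. Intervals cover counting error only, and tags without molecular identifiers are not independent molecules. Alternatives for window, filters, overlap and summary measure are given at the end.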

Additional observations from a re-analysis of the deposited data

How the results depend on the processing

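The counts depended most on filters of peak strength. Of 109 values under alternatives, 76 stayed within a factor of 1.5 (counts), within the Poisson interval (densities) or within 1 SD across peaks (medians). For the median density of the 82 genes the SD was taken across genes. It is wide, since their densities went from 0.920 to 74.0 per Mb against DLD-1/Mock. The transcript alone, 200 kb on each side, summits inside the window, merging within 1000 bp, reciprocal overlap of 50%, summits within 100 bp, counting from the list against input, means, peaks in both lists only and other points of measurement for the exon distance moved none of the results they were applied to beyond these limits. Some of these limits are loose. The SD of the exon distance is large, and its mean was 72521 bp beside the median of 26768 bp. CNTNAP2 with DLD-1/Mock as control went from 10 to 15 peaks with 200 kb on each side, which is at the limit of 1.5. The Poisson intervals of CDH9 and COL23A1 are very wide, and densities inside them still shifted. With DLD-1/Mock as control, CDH9 went from 12.7 peaks per Mb of transcript to 5.59 over the length of the window and 6.33 without the specific site, and COL23A1 from 5.67 to 3.62 and 2.83. With input, CDH9 had the same values and COL23A1 went from 2.83 to 1.81 over the window. Leaving out chromosome 8 from the 82 genes, chosen after seeing the data, took their median from 4.76 to 4.1 peaks per Mb with DLD-1/Mock as control and from 4.54 to 4.1 with input. The overlap rules could not have moved a count, since peaks in both lists have identical coordinates. Merging could not either, since the closest peak centres at these loci lay 28.5 kb apart. The 76 of 109 values include these fixed outcomes and do not measure robustness.

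At a P value limit of 1e-10, CNTNAP2 and CDH9 had 0 peaks in either list or in both, and COL23A1 had 1 with DLD-1/Mock as control, 0 with input and 0 in both, so that the densities were 0 per Mb as well, except for COL23A1 with DLD-1/Mock. When fold enrichment had to reach 10, CNTNAP2 had 2 peaks with DLD-1/Mock as control, 2 with input and 1 in both (0.434 and 0.868 per Mb of transcript), CDH9 had 1 in each list and in both, and COL23A1 likewise had 1 in each list and in both, which was a fall from 2 with DLD-1/Mock and no change otherwise. With an FDR of 5% or less, 0 peaks remained anywhere, which was fixed in advance by the lowest FDR of the full lists, 33.17%. Without the specific site, COL23A1 had 0 peaks per Mb against input. These falls follow from the filters themselves.

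No paired analysis was possible because there was a single library per condition and nothing was tested. The depth limits any ranking, since the 19 peaks rest on 12 to 25 tags each.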
